A study of Mus musculus with 7 samples.

Results

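The genes described here are the Id genes Id1, Id2, Id3 and Id4, the bone morphogenetic protein (BMP) receptor genes Bmpr1a and Bmpr2, and the Smad genes Smad1, Smad5, Smad6 and Smad7. They were taken as every probe set that the platform annotation assigns to exactly 1 of these 10 genes, which gave 26 of the 34945 probe sets with 1 gene and 10 of the 18193 genes so named. Expression was measured on Affymetrix arrays in purified granule neuron precursors, which divide in the outer layer of the developing cerebellum and give rise to its granule neurons. All samples came from mice of the genotype Math1-Cre/Ptc-loxp/Nestin-CFP, in which Math1-Cre (driven by sequence of Atoh1, also called Math1) deletes floxed Ptch1, the inhibitory Hedgehog receptor, from the granule lineage. A fluorescent reporter driven by Nestin sequence was used to sort the cells into Nestin+ and Nestin- fractions, and RNA was taken without culture or treatment. Replicates 1, 3, 4 and 5 make up the Nestin-positive group (4 arrays), and replicates 1, 4 and 5 the Nestin-negative group (3 arrays). Both fractions came from mice of this genotype, so no difference here compares mutant with normal mice. Whether each sorted cell carried the Ptch1 deletion was not measured. The age is postnatal day 7 in the sample labels, which call the tissue medulloblastoma, and postnatal day 4 in the series' design text. The labels do not say that samples came from separate animals, so p-values measure only the spread between these samples, which may in part be technical.

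BMP ligands bind a complex of type I receptors such as Bmpr1a and the type II receptor Bmpr2, which phosphorylates Smad1 and Smad5. These join Smad4, enter the nucleus and activate target genes, of which the Id genes are the most widely used readout, while the inhibitory Smads Smad6 and Smad7 are induced as negative feedback. Id proteins have a helix-loop-helix without a DNA-binding region and hold E proteins away from proneural factors such as Atoh1 and Neurod1. In the developing cerebellum BMP ligands are known to oppose Hedgehog-driven division of granule neuron precursors. Id1 and Id3 are also known as genes of endothelial cells, and Id4 of astrocytes and neural stem cells.

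Values are MAS5 signal, a probe set brightness on a linear scale in arbitrary units. Array medians ranged from 64.4 to 94.5, and a signal under the median of its own array is called dim here. Nes, which encodes Nestin, was 3.32-fold higher in the Nestin-positive fraction (limma, adjusted p = 0.0282), which checks the labels and is no finding, since Nestin defined the sort. All 8 granule neuron precursor markers, Atoh1, Pax6 and Barhl1 among them, were at or above the array median on all 7 arrays. The replicate numbers 1, 4 and 5 occur in both fractions, and same-numbered samples deviated together across genes. Differences are therefore given both over all 7 arrays and with a replicate block, a fit that compares the fractions within the 3 pairs and in which the unpaired Nestin-positive replicate 3 does not bear on the difference.

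Promoters of 8 of the 10 genes were matched in a RefSeq table (GRCm38.p6). Those of Id2, Id3 and Id4 are shown because Id3 and Id4 were the members that passed the test within pairs and Id2, of the same family, did not. Each is the 250 bases before the start site on the coding strand. Capitals mark matches on either strand to motifs known from Smad binding, namely GGCGCC (the same on both strands), the short GTCT (which reads AGAC on the other strand) and the GC-rich GCCGNCGC. No matches of different motifs overlap in these windows.
Id2, chr12:25096093-25096342, minus strand: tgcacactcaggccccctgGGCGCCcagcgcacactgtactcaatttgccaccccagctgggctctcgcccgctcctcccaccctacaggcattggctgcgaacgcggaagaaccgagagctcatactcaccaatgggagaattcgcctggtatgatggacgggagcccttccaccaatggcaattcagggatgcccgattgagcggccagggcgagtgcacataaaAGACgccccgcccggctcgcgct
Id3, chr4:136143572-136143821, plus strand: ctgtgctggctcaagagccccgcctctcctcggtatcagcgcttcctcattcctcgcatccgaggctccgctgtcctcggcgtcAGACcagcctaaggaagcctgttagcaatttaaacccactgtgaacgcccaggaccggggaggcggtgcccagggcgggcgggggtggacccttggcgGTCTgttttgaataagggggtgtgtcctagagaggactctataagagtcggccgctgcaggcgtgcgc
Id4, chr13:48260866-48261115, plus strand: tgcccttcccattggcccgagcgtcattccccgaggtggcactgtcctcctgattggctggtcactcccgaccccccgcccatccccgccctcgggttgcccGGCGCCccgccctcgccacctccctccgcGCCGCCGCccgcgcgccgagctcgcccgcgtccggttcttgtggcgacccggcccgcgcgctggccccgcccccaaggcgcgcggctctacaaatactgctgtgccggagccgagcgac
GGCGCC occurred 1 time in the Id2 window (from 231 bases before the start) and 1 time in that of Id4 (from 148 bases before it), and 0 times in that of Id3. Over 32851 windows of this length in the table, 9.59% held it. GTCT, which is short, was in 82.9% of all windows and occurred 1 time for Id2, 2 times for Id3 and 0 times for Id4. GCCGNCGC was in 6.89% of all windows and among these was found only for Id4, whose window is 75.6% G and C against 62.8% for each of the others. These matches describe the letters and are not measured binding sites.

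Id3 and Id4 were lower in the Nestin-positive sample of every same-numbered pair, to about 0.49 and 0.48 of the Nestin-negative level within pairs, whereas Id1 and Id2 differed little. Bmpr1a was slightly higher on all 4 Nestin-positive arrays. The signals of Bmpr2, Smad1 and Smad5 lay close together in the fractions, and Smad7 had a lower mean in the Nestin-positive fraction without passing a test. Smad6 was dim on all 7 arrays. Of the 10 genes, 9 were bright enough to be tested (22 of 26 probe sets), with the brightest probe set standing for its gene. Over all 7 arrays limma called 0 of the 9 at an adjusted p of 0.05, where 0.748% of all genes tested were called, and 1 of the 9, Bmpr1a, had an unadjusted p under 0.05, against 14.4% of all genes. Without the block 0.171% of all genes rose and 0.577% fell. With the replicate block 2 of the 9 fell, Id3 and Id4, and 0 rose (limma, 3 at an unadjusted p under 0.05, against 22.2% of all genes). In that fit 6.39% of all genes fell, 3.58% rose and 9.97% changed in either direction. The 9 genes had a median log2 difference of -0.17 over all arrays, against -0.03 for all genes tested.

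**Figure D1:**
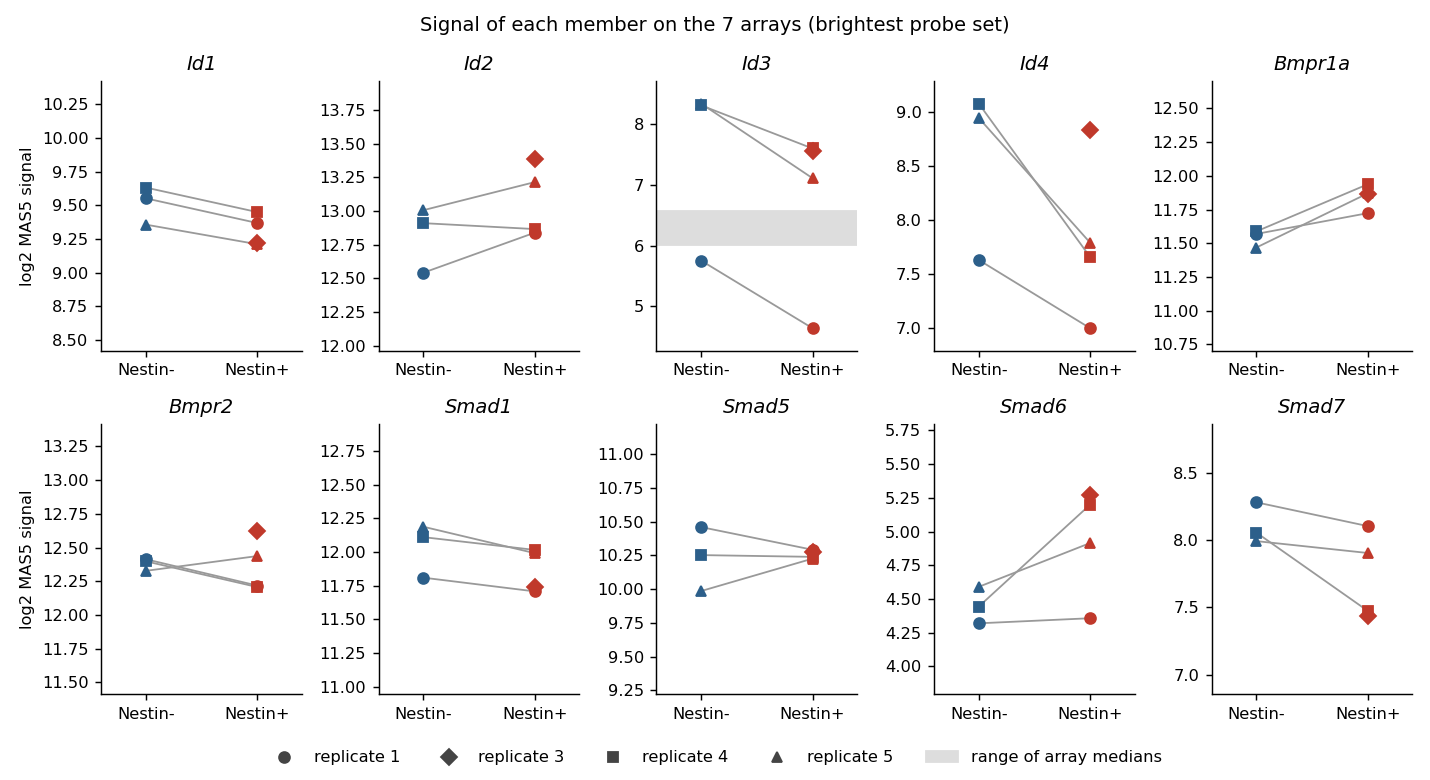
Log2 MAS5 signal of the brightest probe set of each of the 10 genes (y axis; each panel has its own range) in the Nestin-negative (blue) and Nestin-positive (red) fraction, with same-numbered replicates joined by lines; the grey band is the range of the 7 array medians. Id3 and Id4 fall along all 3 lines, with replicate 1 the lowest in both fractions, and the Nestin-positive points of Bmpr1a all lie above the Nestin-negative ones.

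Id3 encodes an inhibitor of E proteins that is induced rapidly by BMP signalling. Its only probe set had signals of 24.9, 189, 194 and 138 on Nestin-positive replicates 1, 3, 4 and 5, and of 54.0, 317 and 324 on Nestin-negative replicates 1, 4 and 5. Replicate 1 was dim in both fractions, and the other Nestin-positive arrays lay between the dim and the bright Nestin-negative arrays, so that the groups overlap. Over all 7 arrays the log2 difference was -0.74 ± 0.81 (SE; limma, adjusted p = 0.734), and p was 0.514 in an exact two-sided permutation test (n = 4 and 3, 35 splits). Within pairs the log2 differences were -1.11, -0.71 and -1.23 for pairs 1, 4 and 5. With the replicate block the log2 difference was -1.02 ± 0.23 (SE; limma, adjusted p = 0.0056), or 2.03-fold lower in Nestin-positive cells. With the replicate number as a random block the call was lost (-0.88, limma, adjusted p = 0.305). In the fixed block it was lost without pair 5 (-0.91, adjusted p = 0.0861). It was also lost when values below the array median were raised to it (-0.65, adjusted p = 0.0721), a choice that touches replicate 1 alone for this gene. Without the block, leaving out Nestin-positive replicate 1 gave -0.04 and leaving out Nestin-negative replicate 1 gave -1.60, neither called.

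Id4 encodes the family member best known for keeping neural progenitors from differentiating early. The brightest of its 3 probe sets had signals of 128, 454, 202 and 221 on Nestin-positive replicates 1, 3, 4 and 5 and of 198, 540 and 492 on Nestin-negative replicates 1, 4 and 5. None of these was dim. Nestin-positive replicate 3, the sample without a partner, was close to the brighter Nestin-negative arrays, and Nestin-negative replicate 1 was as low as Nestin-positive replicates 4 and 5, so that the groups overlap. The log2 difference was -0.73 ± 0.44 (SE) over all 7 arrays (limma, adjusted p = 0.504; exact permutation test, two-sided, p = 0.257). Pairs 1, 4 and 5 differed by -0.63, -1.42 and -1.16. With the block the difference was -1.07 ± 0.17 (SE; limma, adjusted p = 3.0e-04), or 2.10-fold lower. It lay between -1.29 and -0.89 with each pair left out, called each time. Those fits leave 1 residual degree of freedom per gene. Without pair 1 or pair 5 the spread came wholly from the trend over all genes, so those calls do not use the spread of Id4 itself. With all 3 pairs the block leaves 2 per gene, or 19.8 after moderation, so there too the spread came mostly from all genes. With the replicate number as a random block, a fit in which all 7 arrays count, the call was lost (-0.90, limma, adjusted p = 0.0917). The second probe set had signals of 87.8, 470, 139 and 202 in Nestin-positive and 136, 311 and 349 in Nestin-negative cells. It too passed in a blocked fit of every kept probe set (-0.86 ± 0.19, limma, adjusted p = 0.0196), in which 4.26% of probe sets were called. The third had signals of 134 to 201 against 180 to 227 and a blocked difference of -0.41 ± 0.21 (limma, adjusted p = 0.359), so that the size of the fall depends on the probe set. All 3 probe sets were lower in the Nestin-positive sample of each pair, though the third was nearly level in pair 4 (-0.014).

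Id1, the family member most often used as a BMP readout, had signals of 661, 596, 699 and 593 on Nestin-positive replicates 1, 3, 4 and 5 and of 751, 793 and 656 on Nestin-negative replicates 1, 4 and 5. The groups overlap by Nestin-negative replicate 5 alone, which lay below Nestin-positive replicates 1 and 4. Its log2 difference was -0.20 ± 0.13 (SE) over all arrays (limma, adjusted p = 0.542) and -0.17 ± 0.12 with the block (limma, adjusted p = 0.455). The pairs were close together, at -0.18, -0.18 and -0.15. The 95% interval with the block ran from -0.42 to 0.08.

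Id2, an inhibitor of E proteins that is also known to bind the retinoblastoma protein, had signals of 7329, 10700, 7464 and 9504 on Nestin-positive replicates 1, 3, 4 and 5. On Nestin-negative replicates 1, 4 and 5 they were 5964, 7695 and 8225. The highest values were both Nestin-positive and the lowest Nestin-negative, with overlap between. The log2 difference was 0.26 ± 0.17 (SE; limma, adjusted p = 0.539), and 0.15 ± 0.10 with the block (limma, adjusted p = 0.425; 95% interval -0.06 to 0.37). A second probe set separated the groups, with signals of 6420 to 7590 against 5101 to 6393, without passing the test (0.23 ± 0.11, limma, adjusted p = 0.573, among all kept probe sets). The third, dimmer probe set had 203 on Nestin-positive replicate 3 against 467 to 701 on the other 6 arrays, which turned its difference over all arrays to -0.20, while within pairs it differed by -0.06, 0.35 and 0.30.

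Whether the Id genes differed from each other in their response was tested on the log2 difference of 2 genes within each array, for all 6 pairs of Id genes, by exact permutation of the arrays (two-sided). The response of Id2 was above that of Id4 by 0.99 (exact p = 0.0857, 0.514 after Benjamini-Hochberg adjustment over the 6), and it was above in all 3 same-numbered pairs (0.93, 1.38 and 1.36). Id2 was above Id3 by 1.00 (exact p = 0.429, adjusted 0.686), again in all 3 pairs. Id3 and Id4 differed from each other by -0.01 (exact p = 1.00, adjusted 1.00), with pairs on both sides of 0. Id1 was below Id2 by 0.46 and above Id3 and Id4 by 0.54 and 0.53, in all 3 pairs each (exact p from 0.200 to 0.571, adjusted 0.600 to 0.686). None of the 6 passed. The smallest exact p this design can give is 0.0286, which for a single comparison cannot pass after adjustment over the 6, and the permutation does not use the pairing, so this test says little either way.

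**Figure D2:**
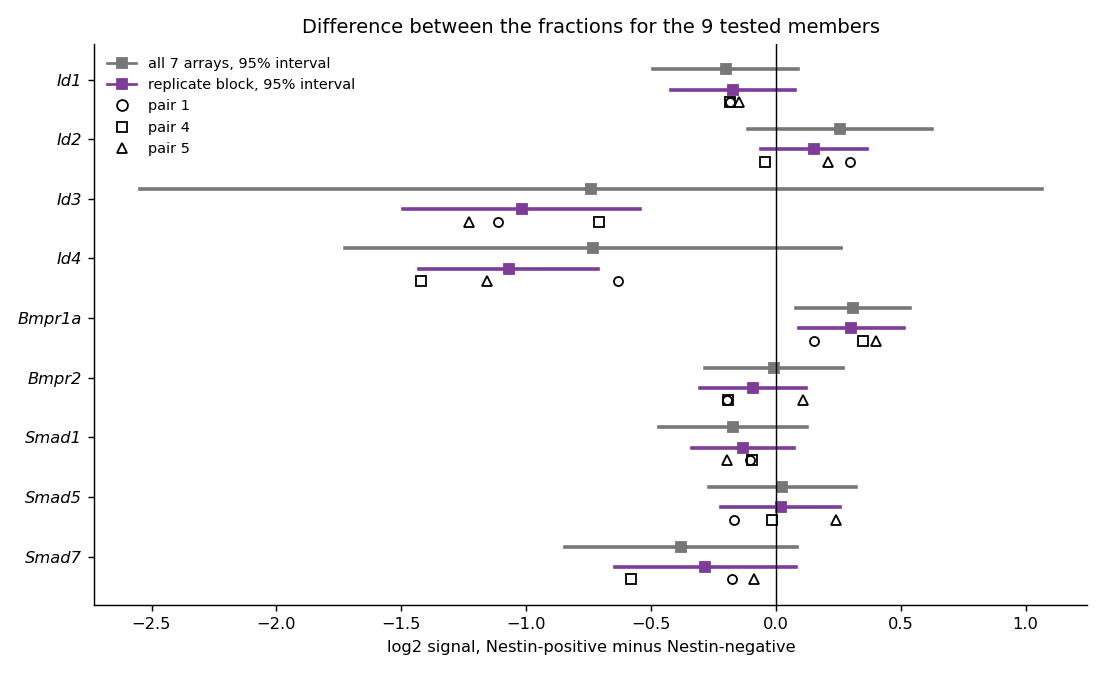
Log2 signal difference, Nestin-positive minus Nestin-negative (x axis), for the 9 tested genes: grey squares and bars are the estimate over all 7 arrays with its 95% interval, purple ones that with the replicate block, and open symbols the 3 single pairs. The blocked intervals of Id3 (-1.49 to -0.54) and Id4 (-1.43 to -0.71) leave out 0 while their wider intervals over all arrays do not, and both intervals of Bmpr1a (0.09 to 0.51 with the block) lie above 0.

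Likeness of other genes' profiles to those of the Id genes was taken as the root mean square difference of log2 profiles centred on their mean over the 7 arrays, a description with no test. Nearest to Id3 were Nid1 (0.29), Timp4 (0.31) and Emid1 (0.36), with blocked log2 differences of -1.02, -1.34 and -1.10. Nearest to Id4 were Spon1 (0.17), Mt2 (0.21) and Eps8 (0.22), with blocked differences of -1.08, -1.05 and -0.69. Since they were picked by profile, their fall within pairs is no separate result. The profiles of Id3 and Id4 were not close to each other (0.74): Id4 ranked 101 by likeness to Id3, and Id3 ranked 4570 by likeness to Id4, among all other genes tested. The nearest genes to Id1 were Hmgxb3, Sdf2 and Aamp (0.04 to 0.05) and those to Id2 were Aco1, Lnx1 and Tmem123 (0.05 to 0.06).

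Like Id3 and Id4, several marker lists had lower medians in Nestin-positive cells in each of the 3 pairs. These were the endothelial, pericyte, meningeal, microglia, GABAergic interneuron and granule neuron lists. The medians of the astrocyte, oligodendrocyte and granule neuron precursor lists were not lower in every pair. In bulk samples such as these, fewer cells of a type and less RNA per cell cannot be told apart. The 8 tested of 10 endothelial markers had median log2 differences of -0.70, -0.15 and -0.57 in pairs 1, 4 and 5, and their summed signal was 408 to 1730 on Nestin-positive and 609 to 1860 on Nestin-negative arrays. The 10 astrocyte and Bergmann glia markers differed by 0.40, -0.44 and -0.13, with sums of 11250 to 31070 and 8565 to 21970. Members of that list went both ways with the block. Aqp4 (-1.69), Aldh1l1 (-1.28) and Fabp7 (-0.65) fell and were lower in all 3 pairs, whereas Slc1a2 (0.52) and Gdf10 (0.70) rose (limma, adjusted p from 1.4e-07 to 0.00244). Thus 3 of the 10 fell and 2 rose, against 6.39% and 3.58% of all genes. Over all 7 arrays 0 of the 10 were called (limma, adjusted p from 0.117 to 0.98), against 0.748% of all genes, and Fabp7 differed by -0.08. Pericyte and smooth muscle markers (7 of 8 tested) differed by -1.71, -1.89 and -2.37, with sums of 557 to 1909 against 1288 to 9163. Meningeal fibroblast markers (5 of 7) differed by -0.69, -1.69 and -1.72, with sums of 3546 to 5463 against 4988 to 10810. The 6 tested of 9 microglia markers differed by -3.24, -2.03 and -2.77, with sums of 202 to 940 against 1687 to 6505. The 3 tested of 6 GABAergic interneuron markers had sums of 33.1 to 363 against 468 to 791, and those of the oligodendrocyte lineage (5 of 7; pairs at -0.18, 0.01 and -0.04) overlapped, at 5621 to 7331 against 6593 to 7404. The 4 tested of 6 granule neuron markers summed to 22330 to 28340 against 31080 to 38610, with pairs 1, 4 and 5 at -1.13, -0.44 and -0.47. No marker was listed at 0, and Gad1 was dim on all Nestin-positive arrays. Of the 6 microglia markers, 0 were at or above the median on all Nestin-positive arrays and 6 on all Nestin-negative ones. These counts were 0 and 2 for the GABAergic interneuron list and 1 and 6 for the pericyte list. They were 1 and 3 for the endothelial and 3 and 5 for the meningeal list. The Nestin-negative arrays alone were enough to keep such markers, so the size of their differences rests partly on dim values. Id3 and Id4 were lowest on replicate 1 in each fraction. There the medians of the endothelial, astrocyte, pericyte, meningeal and, by little, granule neuron precursor lists were also below their mean over the arrays. On Nestin-negative replicate 1 the microglia (0.86), GABAergic interneuron (0.80), granule neuron (0.61) and oligodendrocyte (0.03) lists were above their mean. On Nestin-positive replicate 1 these lists were below it (-2.30, -4.22, -0.32 and -0.12). On Nestin-positive replicate 3, where Id4 was highest among the Nestin-positive arrays, the astrocyte list was above its mean (0.76). The GABAergic interneuron (0.49) and granule neuron precursor (0.17) lists were above theirs on that array too. The endothelial (-0.81), pericyte (-1.97), meningeal (-1.65), microglia (-1.66), granule neuron (-0.37) and oligodendrocyte (-0.41) lists were below theirs. The part of these cells in the values of Id3 and Id4 was not tested.

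**Figure D3:**
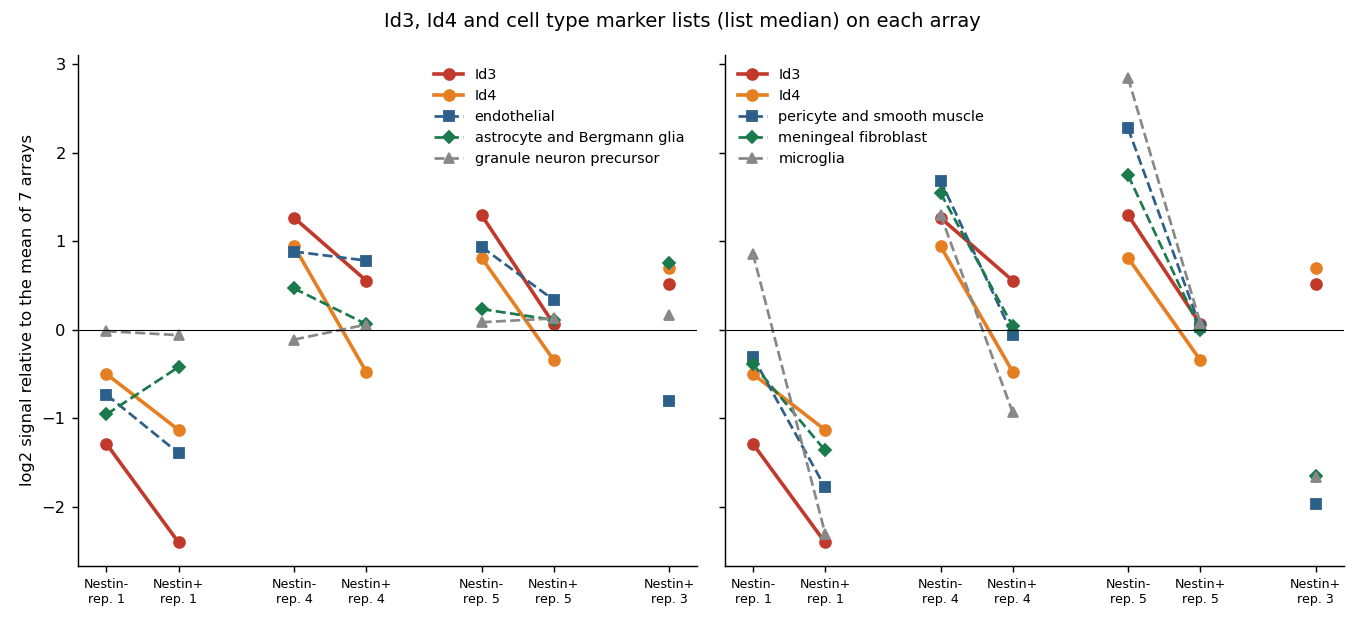
Log2 signal relative to the mean of the 7 arrays (y axis) for Id3, Id4 and the medians of 6 marker lists, by array (x axis), with the samples of a pair joined and the unpaired Nestin-positive replicate 3 at the right. Id3 and Id4 fall in all 3 pairs, as do the pericyte, meningeal and microglia lists. In pair 4 the endothelial list goes from 0.88 (Nestin-negative) to 0.78 (Nestin-positive). In pair 1 the astrocyte list goes from -0.96 (Nestin-negative) to -0.42 (Nestin-positive).

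Among the receptors, Bmpr1a, the type I receptor gene also called Alk3, was higher in Nestin-positive cells by a small amount. Its brightest probe set had signals of 3381, 3739, 3923 and 3744 on Nestin-positive replicates 1, 3, 4 and 5 and of 3038, 3078 and 2833 on Nestin-negative replicates 1, 4 and 5. The groups did not overlap, as for 5.87% of all genes in this direction. The difference was 0.31 ± 0.10 (SE) in log2 signal, a 1.24-fold higher level (limma, adjusted p = 0.201; exact permutation test, two-sided, p = 0.0286, the smallest this design allows). With the block it was 0.30 ± 0.10 (limma, adjusted p = 0.0654), and pairs 1, 4 and 5 differed by 0.15, 0.35 and 0.40. It passed with the replicate number as a random block (0.31, limma, adjusted p = 0.044). The other 3 kept probe sets also had higher means in Nestin-positive cells. One had signals of 811 to 928 against 676 to 797 and another 441 to 565 against 368 to 389, both without overlap, and the last 756 to 945 against 596 to 799. Their log2 differences were 0.25, 0.44 and 0.21. Non-overlapping values in this direction were seen for 4.66% of all kept probe sets. The 2 dimmest probe sets of Bmpr1a, at or above the median on 2 arrays and on 0 of the 7, were not tested.

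Bmpr2, the type II receptor gene, had signals of 4765, 6304, 4729 and 5545 in Nestin-positive and 5456, 5399 and 5139 in Nestin-negative cells. The Nestin-positive arrays lay on both sides of the closely grouped Nestin-negative ones. The log2 difference was -0.01 ± 0.12 (SE; limma, adjusted p = 0.985) with a 95% interval from -0.28 to 0.27. The sign turned under median centring and with the mean of probe sets (0.04 each). Its dimmer probe sets differed by 0.15 and -0.01.

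Smad1 and Smad5 encode the receptor-activated Smads of the BMP branch. Smad1 signals were 3344, 3427, 4139 and 4070 on Nestin-positive replicates 1, 3, 4 and 5 and 3589, 4420 and 4663 on Nestin-negative replicates 1, 4 and 5. They were lower in the Nestin-positive sample of every pair, though by little, and the groups overlap. The difference was -0.17 ± 0.13 (SE; limma, adjusted p = 0.622), and 2 further probe sets gave -0.12 and -0.21, each with 1 pair higher. Smad5 signals were 1254, 1239, 1209 and 1198 against 1409, 1220 and 1014, so that the Nestin-positive arrays were tightly grouped within the Nestin-negative range. The difference was 0.03 ± 0.13 (SE; limma, adjusted p = 0.96), with a 95% interval from -0.27 to 0.32. Its other probe sets gave 0.11 and -0.09. These values measure transcripts, and the phosphorylation that activates Smad1 and Smad5 was not measured.

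Smad7, an inhibitory Smad induced by both BMP and TGF-beta signalling, had signals of 275, 173, 178 and 240 on Nestin-positive replicates 1, 3, 4 and 5 and of 311, 266 and 255 on Nestin-negative replicates 1, 4 and 5. Nestin-positive replicate 1 alone reached into the Nestin-negative range. The difference was -0.38 ± 0.21 (SE; limma, adjusted p = 0.46), and -0.28 ± 0.17 with the block (limma, adjusted p = 0.38), with pairs at -0.18, -0.58 and -0.09. A second probe set, dim on 6 of the 7 arrays, gave -0.21 and was not tested. Smad6, an inhibitory Smad more specific to the BMP branch, had signals of 20.5, 38.7, 36.8 and 30.2 in Nestin-positive and 19.97, 21.8 and 24.1 in Nestin-negative cells, all under the array median. No fold is given for it, since both fractions were dim. In every one of the 3 pairs Id1, Id3, Id4, Smad1 and Smad7 were lower in Nestin-positive cells, which is 5 of the 9 tested genes, against 23.0% of all genes. Bmpr1a alone of the 9 was higher in each pair, as were 19.0% of all genes.

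**Figure D4:**
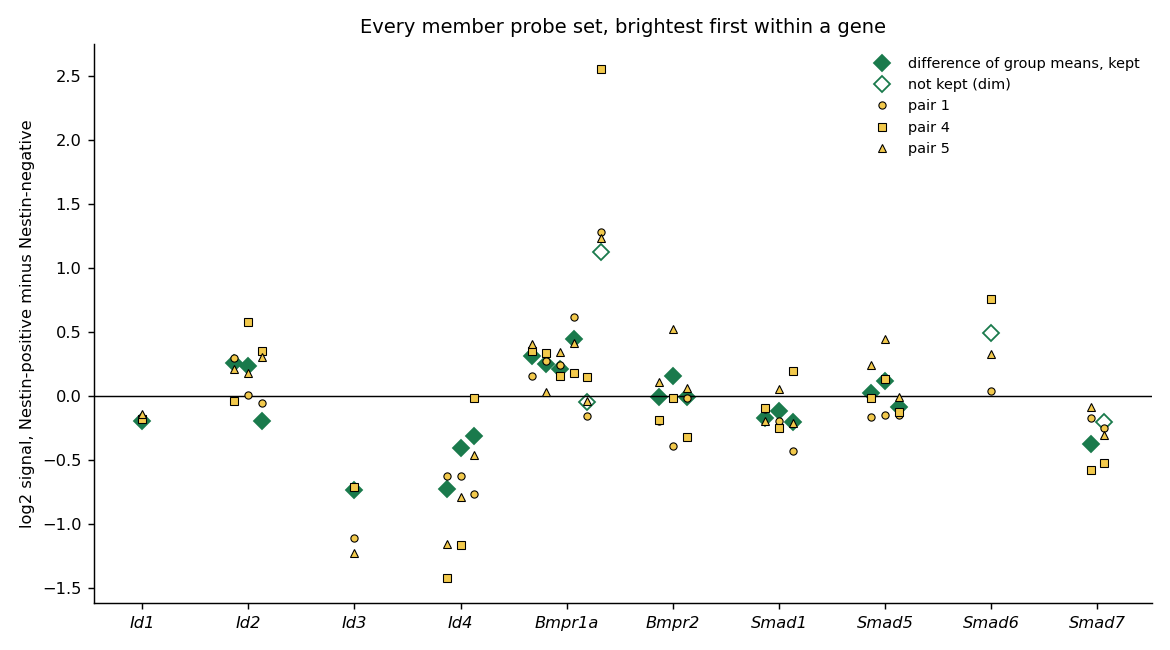
Log2 signal difference, Nestin-positive minus Nestin-negative (y axis), for all 26 probe sets of the 10 genes, ordered from the brightest within each gene: green diamonds are differences of group means (open where the probe set was too dim to be kept) and small yellow symbols the 3 pairs. The 3 probe sets of Id4 lie below 0 and the 4 kept ones of Bmpr1a above it, while those of Id2, Bmpr2 and Smad5 lie on both sides.

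The rest of the pathway was read from lists of 76 further genes, of which 42 could be tested. Limma called 1 of the 42 over all arrays, the corepressor gene Skor1, which fell, against 0.748% of all genes called and 0.577% called lower. With the block 4 rose (Bmp5, Gdf10, Hipk2 and Hes1) and 2 fell (Skor1 and Tgfb1i1). These are 6 of 42, against 9.97% of all genes (3.58% rose and 6.39% fell). The median log2 difference of the 42 was -0.02, against -0.03 for all genes.

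Of the 16 genes in the ligand list 13 had a probe set and 4 were bright enough to be tested. Bmp5, a ligand gene, had signals of 1866, 1356, 1390 and 1297 on Nestin-positive replicates 1, 3, 4 and 5 and of 1218, 1132 and 1017 on Nestin-negative replicates 1, 4 and 5, without overlap. It was higher by 0.42 ± 0.11 (SE) on the log2 scale with the block (limma, adjusted p = 0.0181; 0.277 without it). Gdf10, which encodes a BMP3-like protein and is known in the cerebellum as a gene of Bergmann glia, had signals of 529, 2059, 902 and 743 against 244, 552 and 611. Nestin-positive replicate 3 was the brightest, the groups overlap by Nestin-positive replicate 1 alone, and all 3 pairs were higher (1.12, 0.71 and 0.28; 0.70 ± 0.14 with the block, limma, adjusted p = 0.00244; 0.302 without it). Gdf10 stands in the astrocyte and Bergmann glia list as well. Bmp1, which encodes a protease that cleaves the antagonist Chordin and is no BMP ligand despite its name, differed by -0.32 ± 0.19, and Bmp7 by -0.03 ± 0.32 (limma, adjusted p = 0.488 and 0.978).

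Of 10 other receptor and co-receptor genes 8 were tested. Limma called 0 without the block and 0 with it, against 0.748% and 9.97% of all genes. Each fit had 1 of the 8 at an unadjusted p under 0.05, against 14.4% and 22.2% of all genes. The smallest p was that of Neo1, a receptor of RGM proteins, with signals of 4519 to 4976 in Nestin-positive and 5522 to 5846 in Nestin-negative cells. These did not overlap, as for 9.11% of all genes in this direction, and the log2 difference was -0.26 ± 0.09 (SE; limma, adjusted p = 0.234). Rgma, which encodes a BMP co-receptor, had signals of 193 to 262 against 152 to 182 (0.33 ± 0.19, limma, adjusted p = 0.488). Eng, a co-receptor gene of endothelial cells, had 77.3 to 161 against 105 to 180 (-0.39 ± 0.33, limma, adjusted p = 0.652). The type I receptor genes Bmpr1b and Acvr1 differed by 0.24 ± 0.25 and -0.05 ± 0.12.

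Among antagonists and extracellular modulators 6 of 16 were tested. Limma called 0 without the block and 0 with it, against 0.748% and 9.97% of all genes. At an unadjusted p under 0.05 there were 1 and 2, against 14.4% and 22.2% of all genes. Chrd, which encodes the BMP-binding antagonist Chordin, had signals of 384 to 478 on Nestin-positive and 548 to 580 on Nestin-negative arrays. The groups did not overlap and the log2 difference was -0.37 ± 0.13 (SE; limma, adjusted p = 0.24, and 0.158 with the block). Fstl1 differed by 0.26 ± 0.16 and Chrdl1, a Chordin-like gene, by 0.28 ± 0.25 (limma, adjusted p = 0.51 and 0.669).

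Of the Smad partners and regulators 17 of 19 were tested, with a median of -0.04. Skor1, a corepressor of the Ski family that binds Smads, had signals of 93.0, 175, 245 and 224 on Nestin-positive replicates 1, 3, 4 and 5 and of 549, 801 and 1078 on Nestin-negative replicates 1, 4 and 5. Nestin-positive replicate 1 was just under its array median. The log2 difference was -2.17 ± 0.34 (SE; limma, adjusted p = 0.0328), and -2.18 ± 0.17 with the block (limma, adjusted p = 4.8e-08). Without the block, the call was lost when any of 5 single arrays was left out, namely Nestin-positive replicates 3 and 5 and each Nestin-negative array (limma, adjusted p from 0.0525 to 0.149), and with quantile normalization, median centring, every probe set tested or no intensity trend (0.0662 to 0.178). Hipk2, a kinase gene, rose with the block (0.34 ± 0.11, limma, adjusted p = 0.0459; 0.412 without it), with signals of 1920 to 2903 against 1386 to 2230. Zfp423, a zinc finger cofactor of Smads in the BMP response, differed by -0.41 ± 0.16 (limma, adjusted p = 0.287). The ubiquitin ligase genes Smurf1 and Smurf2, which target Smads, differed by -0.26 ± 0.21 and -0.19 ± 0.11. Smad4, the common partner, differed by -0.11 ± 0.10, and the corepressor genes Ski and Skil by -0.04 ± 0.13 and -0.01 ± 0.11.

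Of other genes known to respond to BMP in some tissues 7 of 15 were tested. With the block 1 rose and 1 fell, against 3.58% and 6.39% of all genes. Hes1, better known as a Notch effector, had signals of 555, 695, 1004 and 664 on Nestin-positive replicates 1, 3, 4 and 5 and of 350, 404 and 378 on Nestin-negative replicates 1, 4 and 5, without overlap. It was higher by 0.93 ± 0.14 (SE) with the block (limma, adjusted p = 1.5e-04) and by 0.92 ± 0.19 over all arrays (limma, adjusted p = 0.0692). Tgfb1i1, a focal adhesion protein gene of smooth muscle, fell by 1.20 on the log2 scale with the block (limma, adjusted p = 0.0385; 0.415 without it). It was dim on 3 of the 4 Nestin-positive arrays and on Nestin-negative replicate 1 (19.9 to 83.1 against 89.0 to 126). Pair 1 (-2.16) thus compared dim values. In the block with values raised to the array median its call was lost, and Skor1 was the only pathway gene called lower. Msx1, a homeobox target of BMP, was dim on 3 of the 4 Nestin-positive arrays and on Nestin-negative replicate 1 too. It had signals of 44.2 to 69.3 against 50.6 to 132 (-0.82 ± 0.40, limma, adjusted p = 0.395). Hey1 and Cdkn1a differed by 0.13 ± 0.13 and -0.24 ± 0.21.

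**Figure D5:**
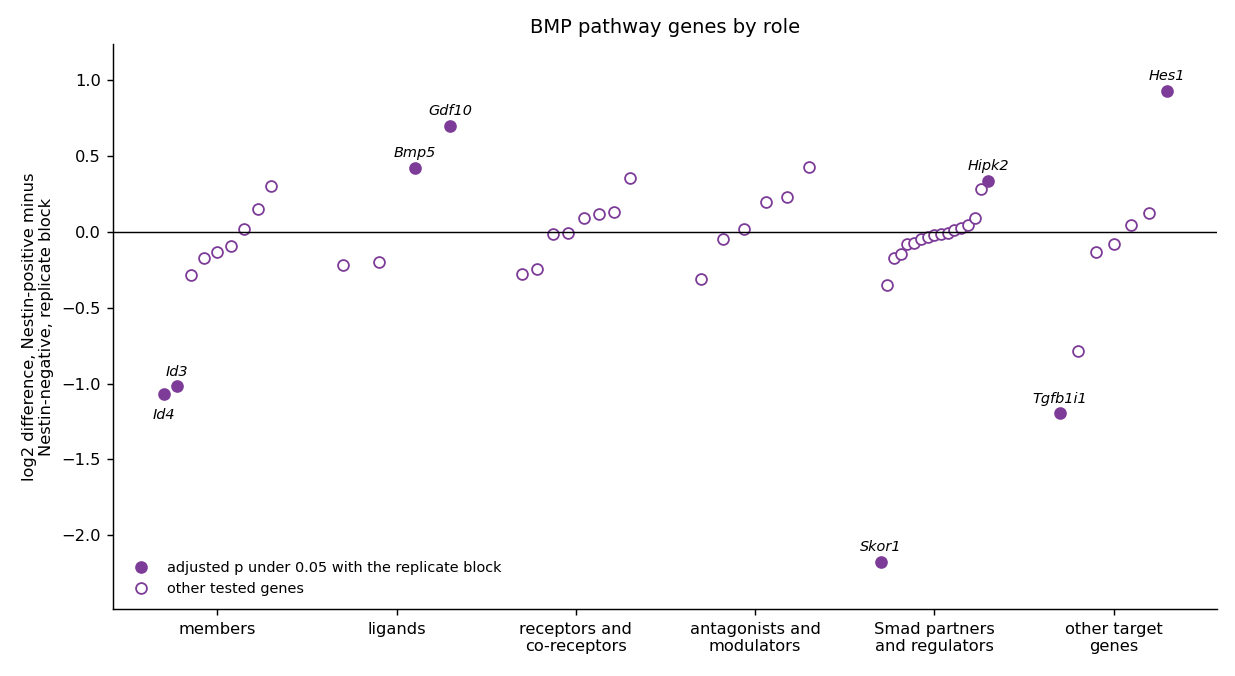
Log2 difference, Nestin-positive minus Nestin-negative, with the replicate block (y axis) for the 9 tested members and 42 further pathway genes by role (x axis), with genes of adjusted p under 0.05 filled and named. Skor1, at -2.18, is the lowest and Hes1, at 0.93, the highest, and the genes of the receptor and antagonist groups are all open.

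The partners of the Id proteins were described in the same way, 8 of 10 tested. Limma called 0 over all arrays (1 at an unadjusted p under 0.05, against 14.4% of all genes). With the block Atoh1, the proneural factor that defines the lineage (0.35 ± 0.11), the E protein gene Tcf3 (0.35 ± 0.10) and Olig2 (0.68 ± 0.13) rose, and Neurod1, a differentiation factor of granule neurons, fell (-0.49 ± 0.11; limma, adjusted p from 0.00185 to 0.0369 for the 4 genes). These are 4 of 8, against 9.97% of all genes (3.58% rose and 6.39% fell). Neurod1 signals were 13040 to 16480 in Nestin-positive and 19330 to 23070 in Nestin-negative cells, without overlap. The E protein genes Tcf12 and Tcf4 differed by 0.09 ± 0.11 and -0.03 ± 0.09 over all arrays, and the transcription factor genes Ets1 and Neurog2 by -0.62 ± 0.49 and -0.41 ± 0.48.

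In the neighbouring TGF-beta and activin branch 8 of 12 genes were tested. Over all arrays limma called 0 (2 at an unadjusted p under 0.05, against 14.4% of all genes). With the block Smad3, a receptor-activated Smad of that branch, rose (0.39 ± 0.10, limma, adjusted p = 0.0177), with signals of 1932 to 2454 against 1554 to 1846, and Acvr1b, a type I receptor gene, fell (-0.40 ± 0.11, limma, adjusted p = 0.0249), with 830 to 1324 against 1470 to 1544. These are 2 of 8, against 9.97% of all genes. Tgfb2, a ligand gene, had 1334 to 1670 against 1782 to 2074 (-0.31 ± 0.11 with the block, limma, adjusted p = 0.0715). Tgfbr1, Tgfb3 and Smad2 differed by 0.15 ± 0.17, 0.27 ± 0.28 and 0.06 ± 0.11.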

How the data were processed

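Total RNA of each sample was measured on a 1-colour Affymetrix mouse array. The deposited values are MAS5 signal, a linear intensity, as the submitters' processing notes say, with no version given in the sources used here; the deposited intensities have a mean of 500 on each of the 7 arrays without the lowest and highest 2%. MAS5 subtracts mismatch signal, which makes ratios of dim values noisy. The number of arrays limits the precision.

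Samples were grouped by title. Of 45101 probe sets, 64 controls were left out, 34945 had 1 gene (34741 matched to RefSeq by Entrez ID), 932 several and 9160 none. Log2 was taken with no pseudocount. Probe sets that reached the array median on 3 or more arrays were kept (23585), and the brightest stood for its gene, giving 11089 genes. Groups were compared with limma 3.58.1 (R 4.3.3, eBayes with intensity trend, two-sided, Benjamini-Hochberg over all genes, threshold 0.05, statmod 1.5.0 for the random block), tested first on simulated data.

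Deviations of same-numbered samples from their group means correlated across genes at 0.71, 0.39 and 0.47 for replicates 1, 4 and 5. All were over 0.1, so the numbers were taken as pairs, though the labels do not state a pairing. Other combinations lay between -0.60 and 0.19. Nestin-negative replicate 5 was also over 0.1 with Nestin-positive replicates 4 (0.19) and 3 (0.14). Deviations within a group sum to 0, so these values are not independent of each other. The block leaves 2 residual degrees of freedom per gene (19.8 after moderation). With a pair left out it leaves 1 (after moderation 87.7 without pair 4, and 11089 without pair 1 or pair 5). The genes and lists were chosen with earlier results of these data known. Named are the 10 genes with all their probe sets, pathway genes called in either fit, up to 3 more per list by smallest p-value, and the 3 nearest profiles of each Id gene; other list members named beside these (Bmpr1b, Acvr1, Smad4, Ski, Skil, Tcf4, Smad2, Pax6, Barhl1) were chosen after their values were seen. In all, 21 alternatives were planned and 4 blocked ones added after seeing the data.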

Additional observations from a re-analysis of the deposited data

Results flagged for a closer look

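Among the 4 Nestin-positive arrays, 2 of 41 named genes had 1 array far from the rest on the log2 scale, by a test that chance passes in about 1 of 20 groups. For Id3 the gap between Nestin-positive replicate 1 (signal 24.9) and its nearest neighbour was 0.835 of the whole range, past Dixon's 95% critical value for 4 samples. For Rgma the gap was 0.937, with Nestin-positive replicate 4 high at 262 and the lowest array at 193. The signal of Id3 was lowest in replicate 1 of the Nestin-negative fraction too (54.0), a group of 3 to which the test was not applied.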

How the results depend on the processing

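The count of called members was 0 over all arrays, and 2 with the replicate block, 1 with the random replicate block (Bmpr1a), 0 with any single array left out and 1 to 2 in the block with a pair left out. Added after seeing the data, the block gave 2 with quantile normalization or the mean of probe sets, 3 with median centring (Bmpr1a, adjusted p = 0.04) and 1 with values raised to the array median (Id4). For the other pathway genes the count of 1 became 6 with the block and 3 with the random block. It became 0 with quantile normalization, median centring, a filter on all 7 arrays, every probe set tested or no intensity trend. It was 0 to 1 with an array left out and 3 to 7 in the block without a pair. In the block it was 4 with quantile normalization or the mean of probe sets, 6 with median centring and 5 with raised values. Over all genes the count of 83 became 1106 with the block, 854 with the random block, 22 with quantile normalization, 126 with a pseudocount of 50, 52 with no filter and 43 with the mean of probe sets. It was 0 with median centring (limma, 683 at an unadjusted p under 0.05), every probe set tested (2283) and no intensity trend (1573). With an array left out it ran from 0 to 97, and in the block without a pair 717 (pair 1), 1419 (pair 4) or 904 (pair 5). In the block it was 802 with quantile normalization, 1182 with median centring, 980 with raised values and 961 with the mean of probe sets. The cause of these shifts was not tested.

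Id1, Id2, Id3, Id4, Bmpr1a, Smad1 and Smad7 kept their sign under all alternatives run; Id3 had none with the filter on all 7 arrays, which removes it. Bmpr2 turned to 0.044 with median centring and to 0.044 with the mean of probe sets, lay between -0.092 and 0.046 with arrays left out, and was 0.002 in the block with median centring. Smad5 ran from -0.098 to 0.139 with arrays left out and was -0.091 in the block without pair 5, and was at 0 to 3 decimals, with a negative sign (-0.000), in the block with quantile normalization.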
